A study of Homo sapiens with 9 samples.

Results

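The BH3-only genes encode the proteins that start apoptosis at the mitochondrion. The 8 members described here, PMAIP1, BBC3, BMF, BCL2L11, BIK, BID, BAD and HRK, were chosen by gene symbol from the 60605 genes of the table, with 1 row per symbol. All 8 were among the 21397 genes tested. In TE13 cells treated with siRNAs against PARylator, the mRNA of PMAIP1 and BCL2L11 was higher with both siRNAs and that of BMF was lower with both. BID was lower with siRNA.2, and no change of BBC3, BIK, BAD or HRK was called.

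BH3-only proteins carry a short helix, the BH3 domain, that fits into a groove on the anti-apoptotic guardians BCL2, BCL2L1 and MCL1. Once guardians are occupied, or once a BH3-only activator touches them directly, the effectors BAX and BAK1 open the outer mitochondrial membrane and release cytochrome c. Each BH3-only gene answers to its own stresses, and several of the proteins are also switched on by cleavage, by loss of phosphorylation or by release from the cytoskeleton, none of which is visible in mRNA.

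RNA was sequenced from TE13, a line of human esophageal squamous cell carcinoma. The groups were control siRNA, PARylator siRNA.1 and PARylator siRNA.2, with 3 biological replicates each. PARylator is the long noncoding RNA of LINC00885, and the siRNAs are a pair of different sequences against it. The time from transfection to harvest was not given in the sources used here, and all results come from 1 line. The study followed the PMAIP1 and BBC3 proteins, better known as NOXA and PUMA, by Western blotting. It reports that both proteins were raised after PARylator knockdown. The question here is what the mRNA of these genes and of the other members did.

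The 9 libraries held between 15337917 and 22559998 counts. The targeted LINC00885 was covered by 6, 7 and 12 reads in the control group, by 4, 5 and 2 in the siRNA.1 group and by 2, 0 and 4 in the siRNA.2 group. The control range overlapped neither siRNA range, but its fall was not called (adjusted p = 0.376 and 0.0659, edgeR). All 7 squamous epithelium markers and all 4 epithelium markers were at 1 FPKM (fragment counts scaled to exon length and library total) or more in each group. The summed squamous markers ran from 711 to 741 FPKM in control libraries, from 488 to 523 in the siRNA.1 group and from 515 to 532 in the siRNA.2 group, although KRT6A and DSG3 among them were higher with both siRNAs. The summed epithelium markers ran from 953 to 980, from 1126 to 1206 and from 996 to 1030 FPKM. Among them, EPCAM and KRT18 were higher with both siRNAs, and CDH1 was lower with both. The summed level of 6 blood cell markers was 0.46 to 1.20 FPKM, 3.65 to 4.37 and 3.49 to 4.41 in the same order, with CD3E and MS4A1 at 3 counts or fewer in every library and CD79A at 4 or fewer. LYZ, at a mean of 0.317, 2.79 and 3.08 FPKM, made up most of that sum in both siRNA groups. CSF1R, at 0.49, 0.897 and 0.757 FPKM, was the largest part in the control group. PTPRC was at 0.0333, 0.153 and 0.147 FPKM. The summed level of 3 endothelium markers was 1.20 to 1.54, 0.63 to 0.89 and 0.42 to 0.54 FPKM. For 4 fibroblast markers it was 1.99 to 2.18, 1.29 to 1.55 and 1.32 to 1.64 FPKM. Mitochondrial genes took 7.46% to 7.66% of control counts, 4.99% to 5.06% of siRNA.1 counts and 5.54% to 5.56% of siRNA.2 counts. These shifts ran with the treatment, and their part in the results below was not tested. In bulk RNA, a change in the number of cells of a kind and a change in RNA per cell cannot be told apart.

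The promoters of the members differ in which factor motifs they hold. RefSeq windows from 250 bases before to 50 bases after the gene start (GRCh38.p14) were at hand for 7 of the 8 members, all but BIK. The stretches of 30 bases that follow show a motif match in capitals for the members that moved most and for BBC3, each read 5′ to 3′ along the strand of the gene. The capitals mark TGACG, the core of the cyclic AMP response element that ATF family factors bind, or its reverse complement, in PMAIP1 and BMF. They mark the FOXO motif GTAAACA in BCL2L11 and the E-box CACGTG, bound by MYC, in BBC3.
PMAIP1: ctagtttccctaCGTCAccagggaagttct
BMF: cagtcctcggcgTGACGcgcaggggggcgg
BCL2L11: gagttactccgGTAAACAcgccagggacgg
BBC3: atggggagatttCACGTGagatatagatta

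The PMAIP1 stretch lay at chr18:59899929-59899958 on the plus strand, with the match starting 55 bases before the RefSeq gene start. That of BMF, at chr15:40108919-40108948 on the minus strand, had its match 57 bases before the start. The BCL2L11 stretch was at chr2:111120680-111120709 on the plus strand, 223 bases before its RefSeq start, and the BBC3 stretch at chr19:47232882-47232911 on the minus strand, 232 bases before its own. RefSeq and the gene table place some starts differently: the table's BCL2L11 begins at position 111119378, so its stretch lies inside the gene by that annotation.

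Both strands were searched, and each motif was also counted in the promoter windows of all genes. TGACG stood in 4 of the 7 member windows (PMAIP1, BMF, BAD and HRK) and in 25.0% of 27305 promoter windows of the same length. GTAAACA was found in BCL2L11 and in 3.41% of all windows, and CACGTG in BBC3 and in 7.43%. No member window held the full element TGACGTCA, which contains the TGACG core (1.98% of all windows), the ATF4 composite TGATGNAAT (1.02%) or the E2F motif TTTGGCGC (0.659%). These are matches of letters, and binding was not measured. PMAIP1 and BMF both held the TGACG core and moved in opposite directions, as described next. BAD and HRK also held it and were not called with either siRNA. Any part of the motif in these levels was not tested.

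At baseline PMAIP1 was the most abundant BH3-only mRNA. Its control level of 26.0 ± 1.17 FPKM (SD, n = 3) was above that of 91.9% of the genes tested. BID (18.1 ± 0.465 FPKM) and BAD (17.2 ± 0.921 FPKM) followed, and their control libraries overlapped. BIK (13.3 ± 0.885 FPKM), BMF (9.95 ± 0.66 FPKM), BCL2L11 (3.52 ± 0.281 FPKM) and BBC3 (2.59 ± 0.269 FPKM) came next, each below the one before it in every library. HRK stood last at 0.183 ± 0.0306 FPKM, above 13.6% of the genes tested. HRK encodes harakiri, which is known mainly from neurons.

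**Figure D1:**
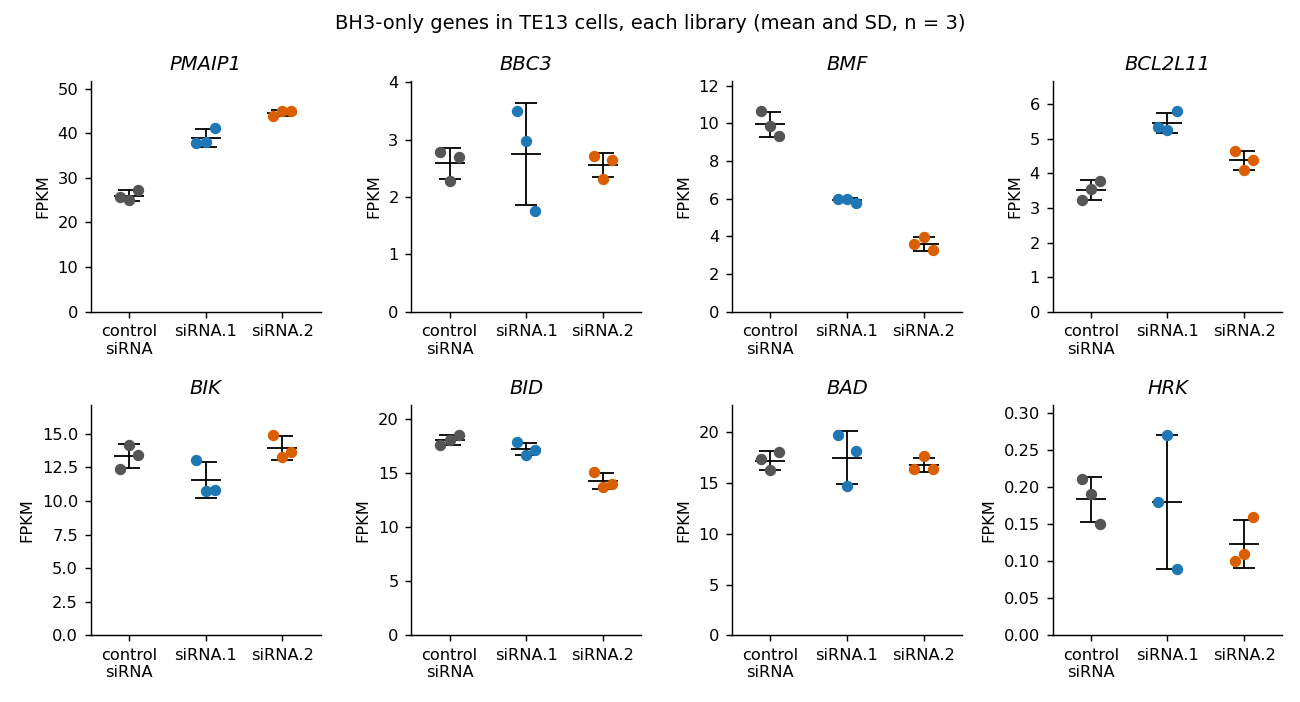
FPKM (vertical axes, from 0) of each BH3-only gene in each library of the 3 groups (horizontal axes); points are libraries, and black bars give the mean and SD of 3. PMAIP1 and BCL2L11 stand higher with both siRNAs, BMF stands lower with both, and BID stands lower with siRNA.2, while the BBC3, BIK, BAD and HRK libraries of the control group overlap those of both siRNA groups.

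With siRNA.1, 3 of the 8 members were called against control siRNA (adjusted p under 0.05, edgeR), beside 30.2% of all genes tested. PMAIP1 and BCL2L11 were higher, as were 15.0% of all genes, and BMF was lower, as were 15.2%. With siRNA.2, 4 of 8 were called, beside 30.9% of all genes. The same 2 members were higher, against 15.8% of all genes, and BMF and BID were lower, against 15.1%. The median log2 fold change of the 8 members was -0.03 for siRNA.1 against -0.04 for siRNA.2, and that of all genes was -0.00053 and 0.0040. With 8 members, counts of 3 and 4 are not read as a departure from the shares over all genes, and the members moved in both directions. FPKM ranges did not overlap control for the 3 members called with siRNA.1 (37.7% of all genes) or for the 4 called with siRNA.2 (39.6% of all genes). Both comparisons use the same 3 control libraries. The shares over all genes include weakly expressed genes. With a stricter count filter (filterByExpr), 6516 of 16852 genes were called with siRNA.1 and 6610 with siRNA.2, which are larger shares.

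**Figure D2:**
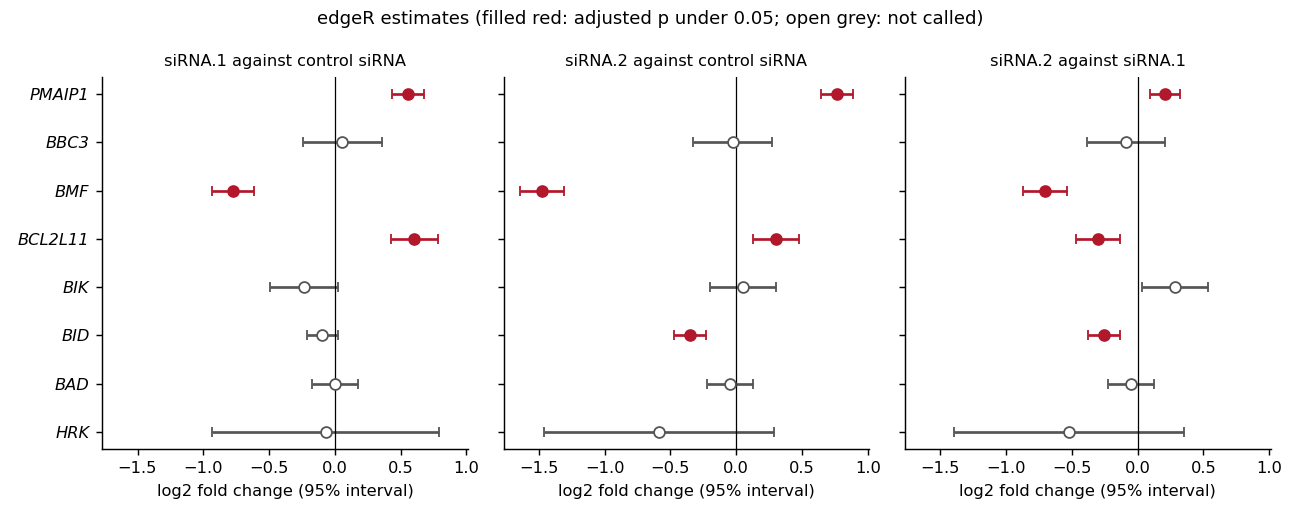
Log2 fold change (horizontal axis) of each BH3-only gene in the 3 comparisons, with 95% intervals from edgeR; filled red points are called at an adjusted p under 0.05 and open grey points are not. BMF runs from -0.77 with siRNA.1 to -1.48 with siRNA.2, PMAIP1 from 0.56 to 0.77, and the HRK interval is the widest.

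Among the members that act chiefly by occupying guardians, PMAIP1 encodes NOXA, a selective binder of MCL1. Its mRNA stood at 25.7, 25.0 and 27.3 FPKM in the control libraries, at 37.7, 37.9 and 41.3 FPKM with siRNA.1, and at 43.9, 44.9 and 45.0 FPKM with siRNA.2. The 3 groups formed separate ranges, with siRNA.2 on top. PMAIP1 rose 1.47-fold with siRNA.1 (95% interval 1.35 to 1.60, adjusted p = 7.84e-18, edgeR) and 1.70-fold with siRNA.2 (1.56 to 1.84, adjusted p = 1.69e-34). The gene lies at chr18:59899996-59904305 on the plus strand. Its log2 fold change was above that of 84.1% of the genes tested with siRNA.1 and of 89.1% with siRNA.2, so larger rises were common.

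BMF, whose protein is held on the actin cytoskeleton and freed when cells detach, moved the most of the 8 and moved down. The control libraries held 10.7, 9.86 and 9.34 FPKM, those with siRNA.1 5.99, 6.01 and 5.78 FPKM, and those with siRNA.2 3.57, 3.98 and 3.26 FPKM. No group overlapped another. BMF mRNA fell to 0.585 of control under siRNA.1 (0.524 to 0.654, adjusted p = 9.35e-20, edgeR) and to 0.359 under siRNA.2 (0.32 to 0.403, adjusted p = 1.21e-66). Only 4.42% of the genes tested had a lower log2 fold change with siRNA.2, against 10.2% with siRNA.1. The gene is at chr15:40087890-40108892 on the minus strand, and BMF-AS1, which overlaps it on the other strand, had 0 counts in every library.

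BAD, a binder of BCL2 and BCL2L1 that phosphorylation keeps inactive, stood at 17.3, 16.2 and 18.1 FPKM in control libraries, 19.7, 14.7 and 18.1 FPKM with siRNA.1, and 16.4, 17.6 and 16.4 FPKM with siRNA.2. The groups overlapped throughout, and the siRNA.1 libraries covered the widest range. The 95% interval of its fold change ran from 0.886 to 1.13 with siRNA.1 (adjusted p = 1, edgeR) and from 0.857 to 1.09 with siRNA.2 (adjusted p = 0.757). The BAD gene overlaps 14643 bases of GPR137 on the opposite strand. GPR137 was at 6.29, 5.80 and 5.88 FPKM in the control, siRNA.1 and siRNA.2 groups, and since strand-specific counting was not stated, reads of the pair may be shared.

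BIK, which sits at the endoplasmic reticulum, had 12.4, 14.2 and 13.5 FPKM in control libraries, 13.1, 10.7 and 10.8 FPKM with siRNA.1, and 14.9, 13.2 and 13.6 FPKM with siRNA.2. A pair of the siRNA.1 libraries lay below all the others and the third among the controls. Neither siRNA gave a call (adjusted p = 0.183 and 0.831, edgeR), with fold intervals of 0.71 to 1.02 and 0.871 to 1.23. HRK rested on 0.09 to 0.27 FPKM per library. Its fold intervals were wide, at 0.525 to 1.73 for siRNA.1 and 0.362 to 1.22 for siRNA.2. No change was called (adjusted p = 0.942 and 0.359, edgeR), and changes within these intervals were not excluded at this depth.

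Among the members that can also activate BAX and BAK1 directly, BCL2L11 encodes BIM. Its mRNA stood at 3.23, 3.55 and 3.79 FPKM in control libraries, 5.35, 5.24 and 5.80 FPKM with siRNA.1, and 4.66, 4.11 and 4.38 FPKM with siRNA.2. The siRNA.2 libraries sat between the other groups without overlapping either. BCL2L11 rose 1.52-fold with siRNA.1 (1.34 to 1.72, adjusted p = 3.83e-10, edgeR) and 1.23-fold with siRNA.2 (1.09 to 1.40, adjusted p = 0.00387). Its locus, chr2:111119378-111168445 on the plus strand, overlaps MIR4435-2HG on the opposite strand by 49068 bases and ACOXL on the same strand by 1233 bases. MIR4435-2HG had group means of 2.01, 2.87 and 2.42 FPKM and ACOXL of 1.88, 2.93 and 2.97 FPKM in the same group order. Both were thus also higher with the siRNAs, and their part in the BCL2L11 counts was not tested.

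BBC3, the gene of PUMA, had 2.78, 2.28 and 2.70 FPKM in control libraries, 3.50, 2.98 and 1.76 FPKM with siRNA.1, and 2.71, 2.32 and 2.64 FPKM with siRNA.2. The siRNA.1 libraries covered both the highest and the lowest value of all 9. BBC3 stood at 1.04 of control in the siRNA.1 group (0.844 to 1.28, adjusted p = 0.841, edgeR) and at 0.981 in the siRNA.2 group (0.797 to 1.21, adjusted p = 0.934). The sign with siRNA.1 hung on single libraries: the log2 fold change was 0.30 without siRNA.1 replicate 3, -0.17 without siRNA.1 replicate 1 and -0.03 without control siRNA replicate 2, and no call was made in any of these.

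BID, which caspase CASP8 cleaves to link death receptors to mitochondria, had 17.6, 18.0 and 18.5 FPKM in control libraries, 17.8, 16.7 and 17.2 FPKM with siRNA.1, and 15.1, 13.7 and 14.0 FPKM with siRNA.2. Control and siRNA.1 libraries overlapped, and all 3 siRNA.2 libraries lay below both. BID fell to 0.784 of control with siRNA.2 (0.721 to 0.853, adjusted p = 1.46e-07, edgeR). With siRNA.1 its fold interval was 0.861 to 1.02 (adjusted p = 0.271).

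**Figure D3:**
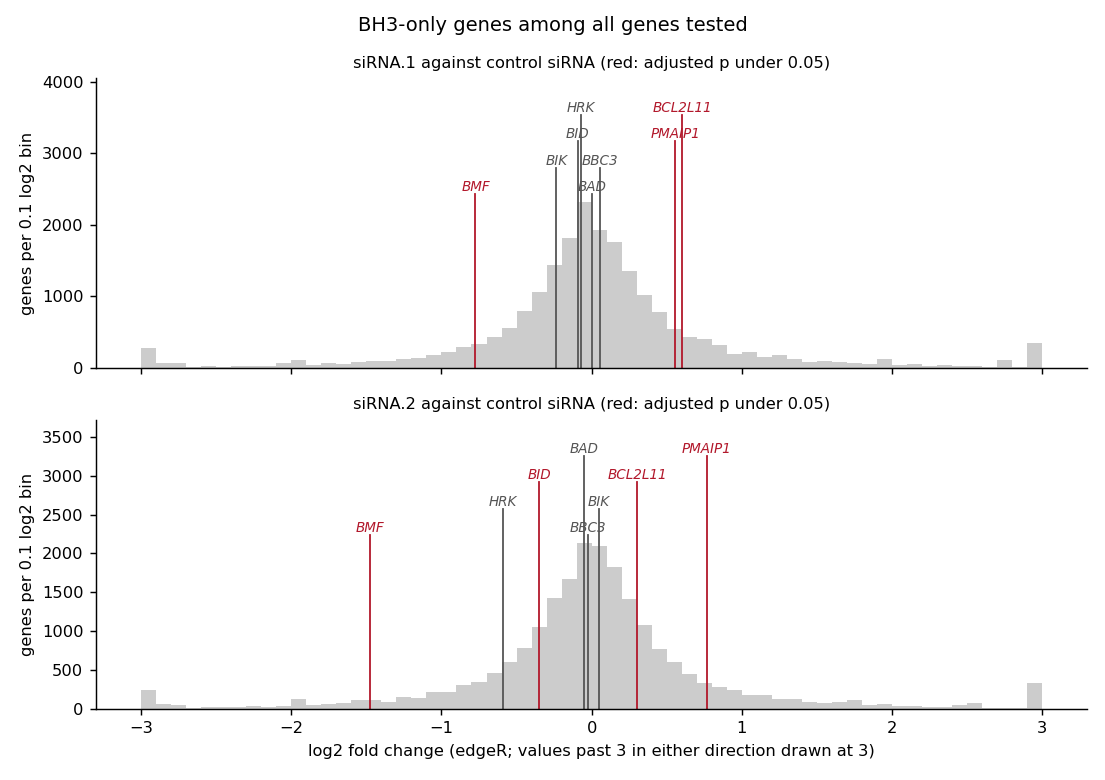
Number of genes (vertical axis, in bins of log2 fold change) among all genes tested, with siRNA.1 above and siRNA.2 below, and the position of each BH3-only gene as a line (red where the adjusted p is under 0.05). PMAIP1 lies above 84.1% and 89.1% of genes and BMF above 10.2% and 4.42%, so some genes moved further than any member on both sides, fewest below BMF with siRNA.2.

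The pair of siRNAs was also compared directly, in the same fit, so control libraries enter only the shared scaling, filter and estimate of spread. Of the 8 members, 4 differed (12.2% of all genes did). PMAIP1 was higher with siRNA.2 than with siRNA.1, as were 6.10% of all genes, and BMF, BCL2L11 and BID were lower, as were 6.07%. PMAIP1 differed 1.16-fold (1.07 to 1.25, adjusted p = 0.00518, edgeR). BMF with siRNA.2 was at 0.614 of its siRNA.1 level (0.546 to 0.691, adjusted p = 9.52e-14), and BID at 0.837 (0.77 to 0.911, adjusted p = 0.000694). BCL2L11 was at 0.811 (0.721 to 0.913, adjusted p = 0.00677). That last call was lost without siRNA.1 replicate 3 (adjusted p = 0.0862), without siRNA.2 replicate 2 (adjusted p = 0.0672) and with limma on log2 FPKM (adjusted p = 0.0539 and 0.0515 with pseudocounts of 0.1 and 1). BIK was 1.22-fold higher with siRNA.2 than with siRNA.1 (1.02 to 1.45) and missed the threshold (adjusted p = 0.151). BBC3 (0.768 to 1.16), BAD (0.857 to 1.09) and HRK (0.38 to 1.28) were not called either.

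Summed over the 8 genes, BH3-only mRNA came to 90.8 ± 2.16 FPKM in control libraries, 99.6 ± 4.57 FPKM in siRNA.1 libraries and 100.2 ± 1.02 FPKM in siRNA.2 libraries (SD, n = 3 each). The lowest siRNA libraries, at 94.5 and 99.4 FPKM, were above the highest control library at 93.3 FPKM. Mean PMAIP1 went from 26.0 FPKM to 39.0 and 44.6 FPKM, a larger rise than that of the sum with each siRNA. The mean sum of the other members was therefore lower than in control with both siRNAs, although siRNA.1 and control libraries overlapped in it. The make-up shifted more than the sum. PMAIP1 took 28.6% of the sum in control libraries, 39.2% in siRNA.1 libraries and 44.5% in siRNA.2 libraries, while BMF went from 11.0% to 5.96% and 3.60%. BID went from 19.9% to 17.3% and 14.2%. The order of levels also changed: BMF and BCL2L11 overlapped with siRNA.1, and with siRNA.2 BCL2L11 was above BMF in every library. BID and BIK overlapped with siRNA.2.

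**Figure D4:**
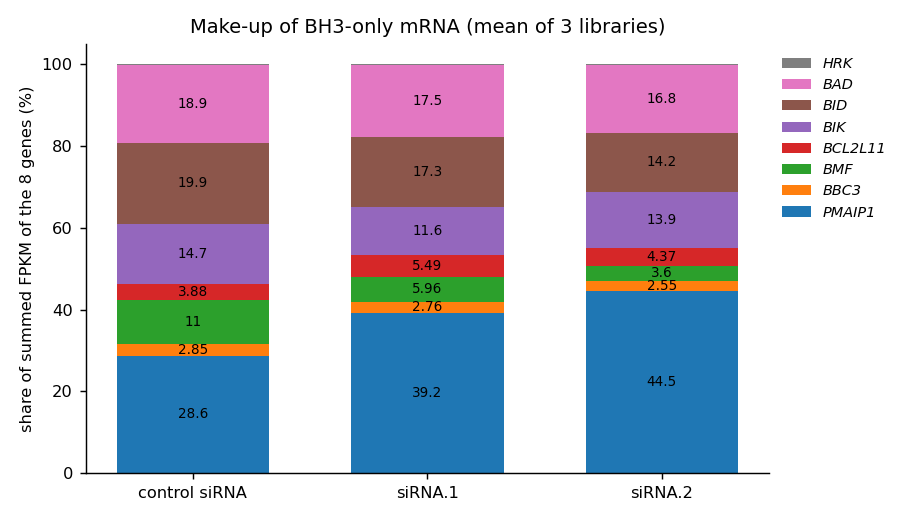
Share of the summed FPKM of the 8 BH3-only genes taken by each gene (vertical axis, percent), as the mean of 3 libraries per group (horizontal axis). The PMAIP1 segment grows from 28.6% to 44.5% and the BMF segment shrinks from 11.0% to 3.60%, while HRK is too small to see.

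The mRNAs of the proteins that BH3-only members bind moved unevenly. Of the 6 guardians, 5 were tested, and 3 were called with siRNA.1 (2 higher, 1 lower) and 2 with siRNA.2 (1 in each direction), beside 30.2% and 30.9% of all genes. MCL1, a guardian that NOXA binds, stood at 97.2, 96.3 and 95.2 FPKM in control libraries. It was at 70.0, 69.6 and 70.6 FPKM with siRNA.1, and at 87.8, 90.6 and 91.7 FPKM with siRNA.2. All siRNA libraries were below all controls. MCL1 fell by 0.49 on the log2 scale under siRNA.1 (adjusted p = 6.40e-34, edgeR) and by 0.11 under siRNA.2 (adjusted p = 0.0202). The siRNA.2 call was lost without control siRNA replicate 1 or siRNA.2 replicate 1 and with no filter on low FPKM, with adjusted p up to 0.14. BCL2L1 rose by 0.30 on the log2 scale with siRNA.1 (adjusted p = 5.22e-07) and was at -0.04 with siRNA.2 (95% interval -0.15 to 0.06). BCL2 rose by 0.63 and 0.83 (adjusted p = 0.00952 and 2.24e-04) from only 0.27 FPKM in control libraries. These BCL2 calls were lost with limma, and that of siRNA.1 also without its replicate 2. BCL2L2, at 18.3 FPKM in control libraries, was not called (0.08 and 0.13), though the siRNA.2 value passed the threshold in 3 of 18 alternatives, with limma and with library totals alone. BCL2A1 was not called either (0.56 and 0.98), but 1 library decided this: its control counts were 2, 2 and 23, and without control siRNA replicate 3 it was called with both siRNAs (log2 fold change 2.55 and 2.97, adjusted p = 0.00899 and 0.00109). BCL2L10 had at most 1 count in any library. The median over the 5 tested guardians was 0.30 and 0.13, against -0.00053 and 0.0040 for all genes.

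Of the 3 pore-forming effectors, only BOK was called with either siRNA, beside 30.2% and 30.9% of all genes. BOK was lower (log2 fold change -0.25, adjusted p = 0.0469, and -0.45, adjusted p = 5.41e-05, edgeR), as were 15.2% and 15.1% of all genes. The siRNA.1 call of BOK was lost in 13 of 18 alternatives, among them 7 of those that leave out 1 library. BAX was at -0.06 and 0.09 (95% intervals -0.18 to 0.06 and -0.03 to 0.21). BAK1 was at 0.18 and 0.17 (adjusted p = 0.051 and 0.0708), close to the threshold, and passed it in 7 and 3 of 18 alternatives. The median of the effectors was -0.06 and 0.09.

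Of 4 genes with a BH3-like motif, 2 were called with siRNA.1 and 1 with siRNA.2, beside the same 30.2% and 30.9% of all genes. BNIP3L, which marks mitochondria for removal, fell with both siRNAs by 0.63 and 0.70 on the log2 scale (adjusted p = 2.59e-16 and 1.17e-20, edgeR). Its relative BNIP3 rose by 0.29 with siRNA.1 (adjusted p = 0.00597), a call lost without control siRNA replicate 3, and was at 0.20 with siRNA.2 (adjusted p = 0.0889). BECN1, which starts autophagy, was at 0.02 and 0.01. HUWE1, the ubiquitin ligase of MCL1, was at -0.08 and 0.06 and was not called, though it passed the threshold with siRNA.1 without control siRNA replicate 2, control siRNA replicate 3 or siRNA.1 replicate 2, and with siRNA.2 without control siRNA replicate 1. The list medians were -0.03 and 0.03.

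Of 8 binders and modifiers of BH3-only proteins, 2 were called for siRNA.1 and 3 for siRNA.2 (30.2% and 30.9% of all genes), and the list medians were -0.01 and 0.04. The dynein light chains hold BIM and BMF on the cytoskeleton. DYNLL1 rose by 0.32 and 0.18 (adjusted p = 6.66e-10 and 6.60e-04, edgeR), the latter lost without siRNA.2 replicate 2 (adjusted p = 0.0616). DYNLL2 was at 0.12 with siRNA.1 (adjusted p = 0.0681; past the threshold in 7 of 18 alternatives, among them DESeq2, limma and the fits without control siRNA replicate 3 or siRNA.1 replicate 3) and rose by 0.20 with siRNA.2 (adjusted p = 0.00101). YWHAZ, a scaffold protein that retains phosphorylated BAD, fell by 0.21 and 0.10 (adjusted p = 1.59e-10 and 0.00387), and its relative YWHAB was at 0.01 and 0.05. CASP8, the protease of BID, was at -0.16 and -0.09 (95% intervals -0.38 to 0.07 and -0.31 to 0.12).

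**Figure D5:**
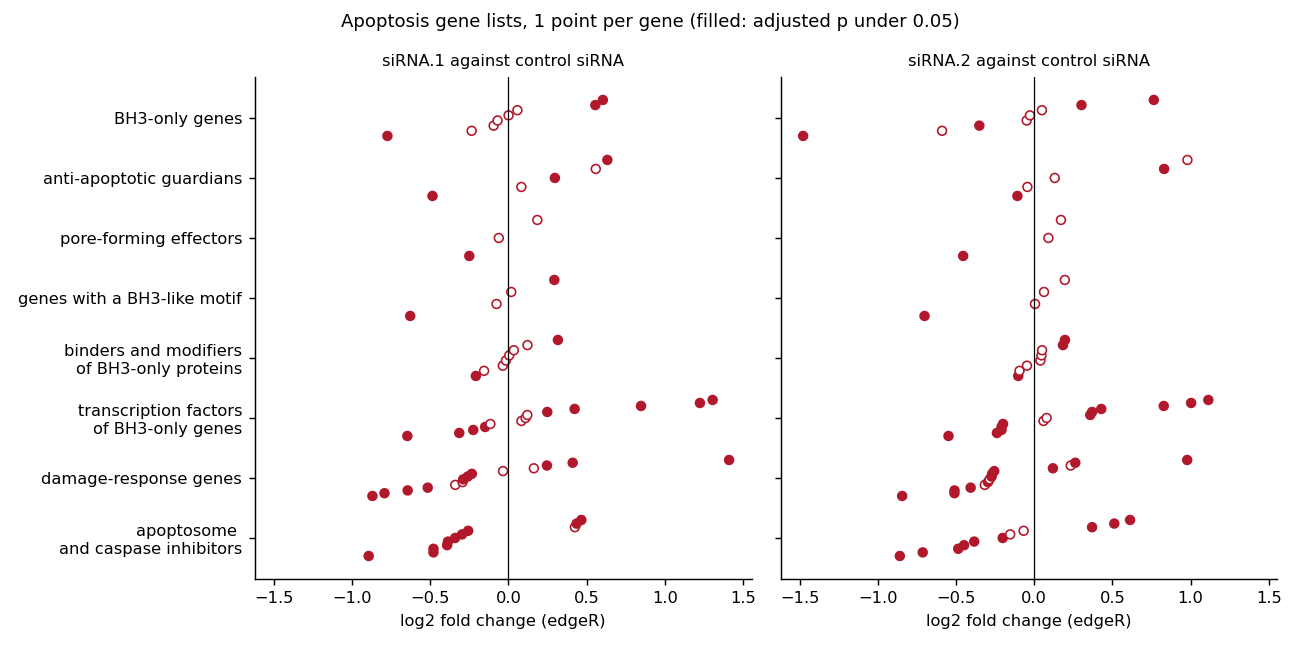
Log2 fold change from edgeR (horizontal axis) of each tested gene of 8 lists (rows), with siRNA.1 on the left and siRNA.2 on the right; filled points are called at an adjusted p under 0.05. Every list but the effectors holds called genes on both sides of 0 with siRNA.1, and GDF15 (1.41) lies farthest from 0 with siRNA.1 and BMF (-1.48) with siRNA.2.

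Among 13 transcription factors known to act on BH3-only genes, 9 were called with siRNA.1 (5 higher, 4 lower) and 11 with siRNA.2 (6 higher, 5 lower), beside 30.2% and 30.9% of all genes, and the list medians were 0.11 and 0.08. The stress factors DDIT3 and ATF3 rose the most. DDIT3, which encodes CHOP, went from 5.48 ± 0.768 FPKM to 13.0 ± 0.176 and 11.9 ± 0.234 FPKM (SD, n = 3), a log2 fold change of 1.22 and 1.11 (adjusted p = 1.29e-18 and 9.55e-16, edgeR). ATF3 went from 5.17 ± 0.735 to 13.0 ± 0.652 and 10.4 ± 0.582 FPKM, a log2 fold change of 1.31 and 1.00 (adjusted p = 1.05e-52 and 3.72e-31). ATF4, the factor of the integrated stress response that acts on PMAIP1, rose by 0.25 and 0.36 (adjusted p = 5.43e-09 and 3.92e-18). MYC rose by 0.85 and 0.83 (adjusted p = 3.07e-83 and 5.05e-80). TP73 fell by 0.65 and 0.55 (adjusted p = 1.06e-06 and 2.78e-05), and IRF1, the interferon response factor, by 0.31 and 0.24 (adjusted p = 3.64e-06 and 5.47e-04).

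Target genes of the DNA damage response did not move as a block. Of 14 genes, 3 were higher and 7 lower with siRNA.1, and 3 higher and 8 lower with siRNA.2, with list medians of -0.27 and -0.28. Of all genes, 15.0% were higher and 15.2% lower with siRNA.1, and 15.8% and 15.1% with siRNA.2. GDF15, a stress cytokine, was the highest, at 1.41 and 0.98 (adjusted p = 5.19e-67 and 6.37e-32, edgeR). XPC, a DNA damage sensor, rose by 0.41 with siRNA.1 (adjusted p = 0.00146) and was at 0.23 with siRNA.2 (adjusted p = 0.105). FAS, a death receptor, was at 0.16 with siRNA.1 (adjusted p = 0.157) and rose by 0.26 with siRNA.2 (adjusted p = 0.00882), a call lost without control siRNA replicate 3, siRNA.2 replicate 2 or siRNA.2 replicate 3 and with limma. ZMAT3, an RNA-binding protein, fell by 0.79 and 0.84 (adjusted p = 2.77e-11 and 4.09e-13), and FDXR, a mitochondrial reductase, by 0.87 and 0.51 (adjusted p = 2.18e-15 and 3.04e-06). Without siRNA.2 replicate 2, 7 targets in place of 11 were called with siRNA.2. Calls over all genes also fell in that fit, from 6614 to 5777.

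Downstream of the mitochondrion, the list of 11 genes covered the apoptosome, caspases and caspase inhibitors. With siRNA.1, 10 were called (2 higher, 8 lower), beside 30.2% of all genes. With siRNA.2, 9 were called (3 higher, 6 lower), beside 30.9% of all genes. The list medians were -0.34 and -0.20. The counts of lower genes include the caspase inhibitors, which were lower with both siRNAs. CYCS, which encodes cytochrome c, rose by 0.47 and 0.61 (adjusted p = 7.28e-36 and 5.98e-62, edgeR). CASP9, the initiator of the apoptosome, fell by 0.89 and 0.86 (adjusted p = 6.04e-07 and 8.96e-07), and the inhibitor BIRC3 fell by 0.48 and 0.71 (adjusted p = 1.39e-17 and 2.35e-38).

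Genes whose pattern over the 9 libraries was most like that of a member were found from the root mean square difference of log2 CPM (counts scaled to library total), each gene centred on its control mean, among 11868 genes with a symbol and at least 1 FPKM. For PMAIP1 these were THBS1 (0.0486), AEN (0.0619) and GANAB (0.0643). THBS1 had log2 fold changes of 0.52 and 0.72 and AEN, an exonuclease known from apoptosis, 0.57 and 0.73. For BMF they were PTAFR (0.0919), MUC20 (0.113) and SCNN1A (0.155), with PTAFR at -0.84 and -1.48. The genes nearest to BBC3 were PPM1J (0.142), RECK (0.15) and GLI4 (0.167), differences larger than those of the PMAIP1 neighbours. BBC3 rested on 98 to 198 counts per library, against 853 to 2217 for PMAIP1. The part of count noise in these differences was not tested.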

How the data were processed

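Poly(A) RNA of the 9 TE13 libraries was sequenced on an Illumina NovaSeq 6000, aligned to GRCh38 with STAR and counted with featureCounts by the authors. Tool versions, annotation release and strand setting were not given in the sources used here. The deposited table gives raw counts per gene (no normalization) and FPKM values that the authors made from those counts, the exonic length and the library total. All (100.0%) of the deposited FPKM values were returned from the counts within 0.006. Gene annotation columns were used for symbols and coordinates.

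Groups came from the sample labels. Counts were tested with edgeR 4.0.16 (quasi-likelihood, TMM, all 9 libraries in 1 fit, R 4.3.3) on the 21397 genes averaging 0.1 FPKM or more. Calls were made at a Benjamini-Hochberg adjusted p under 0.05. Intervals are 95% and fold changes are of counts. The p-values measure the spread between replicates of 1 cell line. Replicate libraries differed by 2.73 to 4.40 chi-square per degree of freedom, so none was a copy. Alternatives were DESeq2 1.42.0, limma 3.58.1 on log2(FPKM + 0.1) and log2(FPKM + 1), other size factors and filters, a replicate block, the compared groups only, a 1.5-fold limit, and each library left out. The code was tested on simulated data.

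The members, gene lists and tests were chosen with earlier results of these data known. All members were named, as was every gene of pathway lists of up to 6 (marker lists are given by their sums, with some markers named). Of longer lists, the 3 highest and 2 lowest by mean log2 fold change over both siRNAs at 1 FPKM or more were named, plus ATF4, DDIT3 and MCL1. A few genes of these lists are not reported here by name. Promoter windows came from RefSeq (GRCh38.p14), the first for each symbol. Protein sequences were not used here.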

Additional observations from a re-analysis of the deposited data

Results flagged for a closer look

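Differences between the effects of the pair of siRNAs were flagged where siRNA.2 and siRNA.1 differed in edgeR at an adjusted p under 0.05. Both groups have 3 libraries, and a positive log2 difference means a higher level with siRNA.2.

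Of the BH3-only genes, PMAIP1 differed by 0.21 (adjusted p = 0.00518), BMF by -0.70 (adjusted p = 9.52e-14), BCL2L11 by -0.30 (adjusted p = 0.00677) and BID by -0.26 (adjusted p = 0.000694). For PMAIP1, BMF and BID the call held in all 9 other settings of the fit and in all 9 fits that leave out a library, and for BCL2L11 in 7 of each 9.

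Of the guardians, MCL1 differed by 0.38 (adjusted p = 4.72e-20) and BCL2L1 by -0.34 (adjusted p = 1.74e-08). HUWE1 differed by 0.14 (adjusted p = 0.0093), DYNLL1 by -0.13 (adjusted p = 0.0434) and YWHAZ by 0.11 (adjusted p = 0.00664). The factors ATF3 and ATF4 differed by -0.30 (adjusted p = 0.00137) and 0.11 (adjusted p = 0.0437), and the damage-response genes GDF15 and FDXR by -0.43 (adjusted p = 1.96e-07) and 0.36 (adjusted p = 0.00812). CYCS differed by 0.15 (adjusted p = 9.03e-04) and BIRC3 by -0.23 (adjusted p = 3.90e-04).

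Of these 11 genes outside the BH3-only group, HUWE1 kept the call in 12 of 18 alternatives, DYNLL1 in 8 and ATF4 in 6.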

How the results depend on the processing

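All calls of PMAIP1 and BMF in the 3 comparisons, of BCL2L11 against control and of BID with siRNA.2 held in every alternative fit at an adjusted p under 0.05. Their log2 fold changes against control ranged over all those fits from 0.51 to 0.59 (siRNA.1) and 0.74 to 0.80 (siRNA.2) for PMAIP1, and from -0.82 to -0.66 and -1.56 to -1.25 for BMF. Requiring a 1.5-fold change beside the adjusted p left 2 members in place of 3 with siRNA.1 (without PMAIP1), 2 in place of 4 with siRNA.2 (without BCL2L11 and BID) and 1 in place of 4 between the siRNAs (BMF). Over all genes it left 1978, 1998 and 385 in place of 6471, 6614 and 2604, and limma called 1437 and 1414 genes between the siRNAs. The 1.5-fold limit can only remove calls, and the cause of the lower limma counts was not tested. Over 432 recomputed member values, 14 changed sign, all of them uncalled: BAD with siRNA.1 under filterByExpr (-0.00023) and, leaving out libraries, from -0.10 to 0.11; BBC3 from -0.17 to 0.30 with siRNA.1, from -0.11 to 0.031 with siRNA.2 and from -0.33 to 0.14 between the siRNAs; HRK with siRNA.1 from -0.44 to 0.25; and BAD between the siRNAs from -0.16 to 0.050. Of 399 recomputed list counts, 58 moved by more than 1.5 times, 19 of them under the 1.5-fold limit.

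Same-numbered libraries of different groups did not deviate together (correlations of -0.12 to 0.05 over 9 pairs), so the number was not taken to pair them. A replicate block left the member calls at 3, 4 and 4, called 6214, 6356 and 2340 genes, and gave BAD with siRNA.1 a value of -0.0030. Depth limits HRK, BCL2A1, BCL2L10 and LINC00885.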
